A study of Danio rerio with 6 samples.

Results

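Red blood cells of the zebrafish embryo carry their oxygen on embryonic haemoglobin, a tetramer of alpha-type and beta-type globin chains around haem. The transcription factor Gata1 drives the red cell programme, Alas2 starts haem synthesis in these cells, and a spectrin-based skeleton anchored to the anion exchanger band 3 shapes the membrane. Zebrafish red cells keep their nucleus and circulate through the vessels that endothelial cells line. The genes described here are the alpha globins hbae1 and hbae3, the beta globins hbbe1.1, hbbe2 and hbbe3, the factor gene gata1a, the haem enzyme gene alas2, and the membrane genes sptb, slc4a1a and epb41b. They were taken by exact gene symbol, and each of the 10 symbols matched 1 of the 29361 rows of the count files. All 10 passed the low-count filter, which kept 19381 rows.

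The libraries came from 48-hour zebrafish embryos, 3 with the uq4bh mutation of mafba, a large Maf transcription factor gene, and 3 wild-type. Both genotypes carried a kdrl eGFP transgene, in which the promoter of a Vegf receptor gene marks endothelium, and cells were sorted by their fluorescence. The labels call the cells purified endothelial cells but their protocol also names brains and pdgfr beta eGFP, and it says that RNA was amplified. No label says whether libraries of 1 genotype came from different embryos, so each p-value is set by the spread among these 6 libraries, which may be technical.

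Reads on genes numbered 44888870 to 52923490 in mutant libraries and 43859736 to 49145191 in wild-type libraries. The level of mafba RNA was 31.0, 39.6 and 38.6 CPM in mutant 1, 2 and 3, against 32.8, 45.8 and 33.3 CPM in wild-type 1, 2 and 3. Where in mafba the lesion lies is not stated by the labels, so this does not check the genotypes. Levels are given as CPM, gene counts scaled to the TMM-adjusted library size. The 16 matched endothelial markers summed to 683 to 1024 CPM in mutant and 773 to 1161 CPM in wild-type libraries, and all were detected. Markers of other cells were present as well: 7 neutrophil markers summed to 5821 to 14556 CPM in mutant and 5706 to 9669 CPM in wild-type libraries, and 6 thrombocyte markers to 365 to 717 CPM in mutant and 609 to 944 CPM in wild-type libraries. Of these 6, thbs1b averaged 505 CPM in mutant and 709 CPM in wild-type libraries, and itga2b only 4.35 and 4.07 CPM. Sums of 9 epidermis markers ran from 10167 to 15305 CPM in mutant and from 9506 to 12950 CPM in wild-type libraries. For 9 skeletal muscle markers they ran from 1681 to 3448 CPM in mutant and from 1753 to 4923 CPM in wild-type libraries. The 7 macrophage markers summed to only 6.91 to 9.29 CPM in mutant and 8.58 to 22.7 CPM in wild-type libraries. The pericyte gene pdgfrb, the other reporter named in the protocol, stood at 0.715 ± 0.424 CPM in mutant and 0.410 ± 0.358 CPM in wild-type libraries (SD, n = 3 each). It was the lowest tested of 7 mural cell markers, which summed to 32.2 to 37.3 CPM in mutant and 27.1 to 34.4 CPM in wild-type libraries. The highest, notch3, averaged 26.7 and 21.9 CPM. Sums of 7 neural markers ran from 172 to 233 CPM in mutant and from 189 to 261 CPM in wild-type libraries. In bulk libraries fewer red cells and less RNA per red cell cannot be told apart.

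None of the 10 erythroid genes passed the test between genotypes. Globin levels ranged more widely among mutant than among wild-type libraries, and the values of the genotypes overlapped. Summed globins ran from 1297 to 3760 CPM in mutant and from 1998 to 2918 CPM in wild-type libraries. The level of gata1a was 0.553 times wild-type in the fit, without passing. The membrane genes varied least from library to library. The edgeR quasi-likelihood test, adjusted over all genes, called 0 of the 10 genes and 0% of the 19381 genes tested. At an unadjusted p under 0.05 it marked 1 of the 10, gata1a, against 1.57% of all genes. DESeq2 and limma-voom also called 0 genes, with 358 and 461 genes at an unadjusted p under 0.05, that is 1.85% and 2.38% of those tested, against 305 in edgeR.

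**Figure D1:**
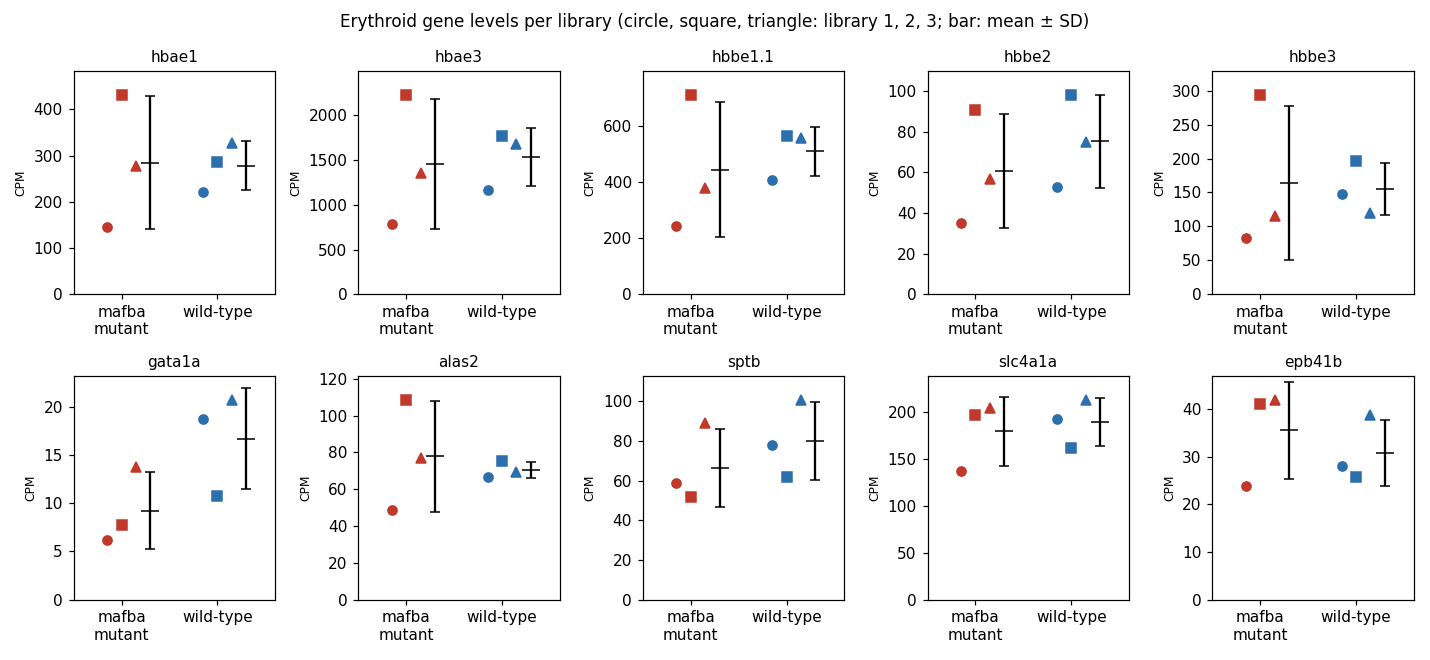
CPM of each of the 10 erythroid genes (vertical axes, linear from 0) in the 3 mafba mutant libraries (red, left) and the 3 wild-type libraries (blue, right), with black bars for mean ± SD. Mutant and wild-type points overlap for every gene, and mutant 1 is lowest in every panel but that of sptb.

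The alpha globin gene hbae3 stood at 790, 2231 and 1354 CPM in mutant 1, 2 and 3, against 1167, 1772 and 1675 CPM in wild-type 1, 2 and 3. Mutant 2 was the highest library and mutant 1 the lowest, so the mutant libraries enclosed the wild-type ones. The mean was 1459 ± 726 CPM in mutant and 1538 ± 325 CPM in wild-type libraries (SD, n = 3 each). On the log2 scale hbae3 differed by -0.08 ± 0.31 (SE), with 0.590-fold and 1.52-fold of wild-type as the ends of the 95% interval. The other alpha globin gene, hbae1, had 145, 432 and 278 CPM in the mutant libraries, against 221, 287 and 328 CPM in the wild-type libraries. Its log2 difference was 0.03 ± 0.32, with the same libraries at both ends.

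Among the beta globin genes, hbbe1.1 had 243, 713 and 380 CPM in the mutant libraries, against 410, 565 and 557 CPM in the wild-type libraries, a log2 difference of -0.20 ± 0.32 (SE). Mutant 1 and mutant 3 lay below each wild-type library and mutant 2 above each. For hbbe2 the levels were 34.9, 90.5 and 56.5 CPM in mutant libraries, against 52.5, 98.1 and 75.0 CPM in wild-type libraries, and the log2 difference was -0.31 ± 0.31. This was the 1 globin of the 5 whose highest library was wild-type. The gene hbbe3 had 83.6, 294 and 115 CPM in the mutant libraries, against 148, 197 and 120 CPM in the wild-type libraries. It had the widest spread of the 10 genes, with the highest library at 3.52 times the lowest, and a log2 difference of 0.08 ± 0.43.

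Of the 5 globins, 2 were fitted higher and 3 lower in mutant libraries, where 50.7% of all genes were fitted lower. With a single library left out, the direction could reverse in each globin but hbbe2, which stayed lower. Without mutant 2 all 5 log2 differences were negative, from -0.72 for hbbe2 to -0.40 for hbae1, and without mutant 1 they lay between -0.03 for hbbe2 and 0.40 for hbbe3. In both fits edgeR called 0 genes. The summed globins took 0.124%, 0.353% and 0.243% of reads on genes in mutant 1, 2 and 3, against 0.193%, 0.286% and 0.291% in wild-type 1, 2 and 3. The library with the most globin reads, mutant 2, was also highest for the sum of the neutrophil markers, at 14556 CPM. The lowest globin library, mutant 1, was at 5821 CPM and wild-type 3 lower still, at 5706 CPM. Most of the sum in mutant 2 was lyz, at 10484.5 CPM. The marker ncf1 had 71.1 CPM in mutant 2 and was highest in mutant 3, at 149 CPM. The part of neutrophil content in the globin values was not tested.

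Although their total varied 2.90-fold between libraries as CPM, most globins took much the same share of the globin reads in each library. Some shares did not overlap between the genotypes, by small gaps that were not tested. The zebrafish globin genes lie in a pair of clusters, each with alpha and beta genes side by side; in the RefSeq order of assembly GRCz12tu, hbbe3 and hbbe2 are neighbours in the smaller cluster, and hbbe1.1 and hbae3 lie in the larger. Other rows of the table also belong to globins: hbbe1.2, the row si:ch211-5k11.12, which is a synonym of hbbe1.3, and the row si:ch211-5k11.2, a synonym shared by hbae1.2 and hbae1.3. Counted over all globin rows, hbae3 took 45.6%, 44.1% and 46.2% of globin reads in mutant 1, 2 and 3, against 44.7%, 45.9% and 45.4% in wild-type 1, 2 and 3. Its 95% Wilson intervals were as narrow as 43.9% to 44.4% in mutant 2, and cover counting error only. Of the 8 globin rows with reads in every library, 3 had shares that did not overlap between the genotypes. The share of hbbe1.1 was 14.0%, 14.1% and 12.9% in mutant 1, 2 and 3, against 15.7%, 14.6% and 15.1% in wild-type 1, 2 and 3, lower in each mutant library. The share of si:ch211-5k11.12 was 19.8%, 20.4% and 20.1% in mutant libraries, against 18.1%, 19.7% and 19.7% in wild-type libraries, higher in each mutant library. Its intervals in mutant 1 (19.5% to 20.1%) and wild-type 3 (19.5% to 19.9%) overlapped, so counting error covers that gap. The share of hbbe2 was at most 2.009% in mutant libraries and at least 2.011% in wild-type libraries, a gap far smaller than the spread within either genotype. Here too the intervals overlapped, at 1.92% to 2.11% in mutant 1 and 1.93% to 2.10% in wild-type 1. Shares of a total depend on each other, and they were given no test. No figure over all genes was computed for shares, so how unusual this count of rows is was not tested. All shares here are of reads, not corrected for transcript length. Between 13.6% and 20.3% of the entries in each file were reads with no unique alignment, which were not assigned to genes, so near-identical globin copies carry an uncertain share.

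Of the 28 ratios between 2 of these 8 rows, 24 overlapped between the genotypes and 4 did not. The ratio of hbae1 to hbae3 reads was 0.183, 0.193 and 0.205 in the mutant libraries, against 0.189, 0.162 and 0.196 in the wild-type libraries. For hbbe1.1 to hbae3 it was 0.308, 0.320 and 0.280 in the mutant libraries, against 0.351, 0.319 and 0.333 in the wild-type libraries. The groups overlapped in both of these ratios, and the highest library was 1.27 and 1.25 times the lowest. The ratio of si:ch211-5k11.12 to hbbe1.1 did not overlap, at 1.41, 1.45 and 1.55 in mutant libraries, against 1.16, 1.35 and 1.31 in wild-type libraries, where 1.31% of 11202 genes gave a ratio with hbbe1.1 that separated the genotypes in either direction. Both rows are beta globin genes of the larger cluster, and how far reads were split between such copies was not tested. The ratio of hbbe2 to hbae3 was 0.0441, 0.0406 and 0.0417 in mutant libraries, against 0.0450, 0.0554 and 0.0448 in wild-type libraries, also without overlap. Here 1.76% of genes gave such a ratio with hbbe2. Both percentages are over ratios to genes of any profile. Globins varied together, so neither is a like rate for ratios between 2 globins. The other 2 ratios without overlap were hbae1 to hbbe1.1, higher in each mutant library, and hbbe2 to si:ch211-5k11.12, lower in each. No counting error was computed for the 4 ratios. Gaps were as narrow as 0.0441 in mutant 1 against 0.0448 in wild-type 3 for hbbe2 to hbae3, with 1640 hbbe2 reads in mutant 1. Whether such gaps exceed counting error was not tested. The neighbours hbbe2 and hbbe3 moved less closely together. Their ratio, hbbe3 over hbbe2, was 2.40, 3.25 and 2.04 in the mutant libraries and 2.82, 2.00 and 1.61 in the wild-type libraries, a 2.02-fold range. The share of hbbe3 ran from 3.27% in wild-type 3 to 5.82% in mutant 2. The ratio of the 2 alpha globins to the 3 beta globins was 2.59, 2.43 and 2.96 in mutant libraries and 2.27, 2.39 and 2.66 in wild-type libraries, again with overlap.

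**Figure D2:**
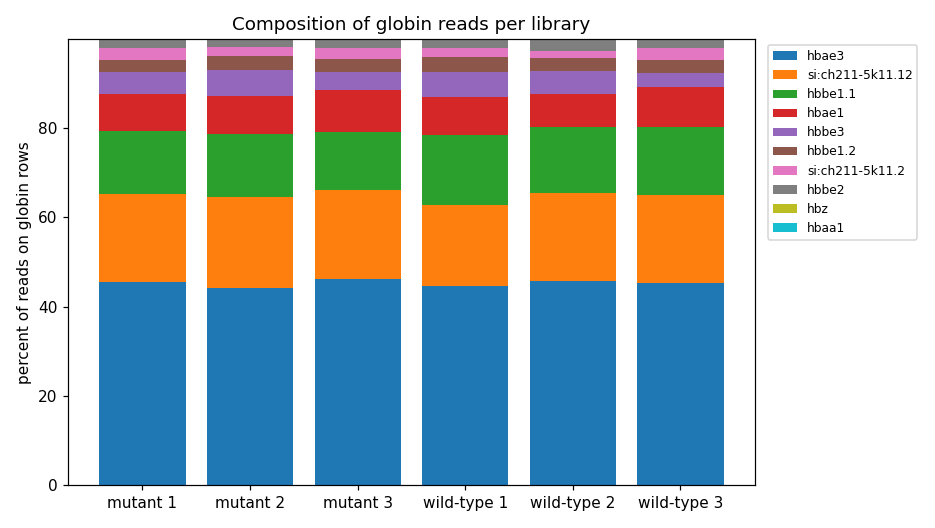
Stacked bars give the percent of reads (vertical axis) that each globin row took among all globin reads, in mafba mutant libraries 1 to 3 and then wild-type libraries 1 to 3. The share of hbae3 lies between 44.1% and 46.2% in each bar, that of hbbe1.1 is lower in each mutant than in each wild-type library, and that of hbbe3 varies from 3.27% to 5.82%.

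Globin genes of the adult fish were hardly seen among the uniquely aligned reads. The adult alpha gene hbaa1 had 0 reads in each mutant library and in wild-type 1 and 2, and 60 reads in wild-type 3. Taken as at most 3 reads, a count of 0 allows up to 0.00368% of globin reads in mutant 1, the shallowest library for globins. In mutant 2, the deepest, it allows 0.00141%. Reads with no unique alignment were not assigned to genes, so these limits do not cover reads shared by near-identical copies. The rows matched to hbaa2, hbba1 and hbba2 through synonyms had 0 reads in all 6 libraries. The row hbz, a synonym of both hbae4 and hbae5, had 0, 192 and 126 reads in mutant libraries and 18, 222 and 25 reads in wild-type libraries. Its mean was 2.23 ± 2.28 CPM in mutant and 2.00 ± 2.67 CPM in wild-type libraries (SD, n = 3 each), so the genotypes differed by less than the spread between libraries.

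The gene gata1a encodes the factor that switches on globins and other red cell genes, and zebrafish embryos that lack it have few or no red cells. It had 6.23, 7.78 and 13.8 CPM in mutant 1, 2 and 3, against 18.7, 10.8 and 20.8 CPM in wild-type 1, 2 and 3, from 293 to 1078 reads a library. Mutant 1 and mutant 2 lay below every wild-type library, and mutant 3 lay above wild-type 2. The mean was 9.26 ± 3.98 CPM in mutant and 16.7 ± 5.28 CPM in wild-type libraries (SD, n = 3 each). On the log2 scale gata1a differed by -0.85 ± 0.35 (SE), an interval of 0.325 to 0.942 times the wild-type level, with an unadjusted edgeR p of 0.0320 and an adjusted p of 1.00. It ranked 161 of 19381 genes by p. Leaving out mutant 1 gave -0.63 and leaving out mutant 3 gave -1.26, neither past the threshold in edgeR. The groups of gata1a overlapped, as did those of the other 9 genes; over all genes 3.36% had every mutant library below every wild-type library and 3.38% had every mutant library above.

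Ratios of gata1a to epb41b, sptb, slc4a1a and alas2 were taken within each library, where they do not depend on scaling. In mutant 1 and mutant 2 each ratio was lower than in every wild-type library. In mutant 3 this held for epb41b and sptb only. The ratio of gata1a to epb41b reads was 0.261, 0.190 and 0.328 in mutant 1, 2 and 3, against 0.665, 0.418 and 0.535 in wild-type 1, 2 and 3, with no overlap. Its ratio to sptb was 0.106, 0.151 and 0.155 in mutant libraries and 0.240, 0.174 and 0.206 in wild-type libraries, also without overlap. Against slc4a1a the values were 0.0454, 0.0396 and 0.0675 in mutant libraries and 0.0971, 0.0664 and 0.0975 in wild-type libraries, where mutant 3 lay just above wild-type 2. Against alas2 they were 0.128, 0.0717 and 0.179 in mutant libraries and 0.281, 0.143 and 0.298 in wild-type libraries, with the same kind of overlap. Of 11202 genes with at least 5 CPM on average, 17.4% gave a ratio with gata1a that was lower in every mutant library, so the separation from epb41b and sptb was shared with many other genes.

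The enzyme gene alas2, which catalyses the first step of haem synthesis in red cells, had 48.5, 109 and 76.8 CPM in mutant 1, 2 and 3, against 66.7, 75.2 and 69.7 CPM in wild-type 1, 2 and 3. The wild-type libraries lay close together and the mutant libraries lay on both sides of them. The mean was 78.0 ± 30.1 CPM in mutant and 70.5 ± 4.35 CPM in wild-type libraries (SD, n = 3 each), and the log2 difference was 0.14 ± 0.24 (SE). Without mutant 2 it was -0.17.

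The membrane genes are known from zebrafish mutants with anaemia. The gene sptb encodes erythroid beta-spectrin, the main filament of the membrane skeleton. It had 58.7, 51.5 and 88.9 CPM in mutant 1, 2 and 3, against 78.1, 61.7 and 101 CPM in wild-type 1, 2 and 3, a log2 difference of -0.27 ± 0.23 (SE). Mutant 1 and 2 were below every wild-type library and mutant 3 above all but wild-type 3. Its lowest library, mutant 2, was the highest for 4 of the 5 globins. The gene slc4a1a, for the anion exchanger band 3, had 137, 197 and 204 CPM in the mutant libraries, against 193, 162 and 213 CPM in the wild-type libraries. Its log2 difference was -0.08 ± 0.18, and its highest library was 1.55 times its lowest, the narrowest range of the 10 genes. The gene epb41b, for the protein 4.1 that ties spectrin to actin and the membrane, had 23.8, 41.1 and 42.0 CPM in the mutant libraries, against 28.2, 25.8 and 38.8 CPM in the wild-type libraries. Its log2 difference was 0.20 ± 0.25, and mutant 2 and 3 lay above every wild-type library.

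**Figure D3:**
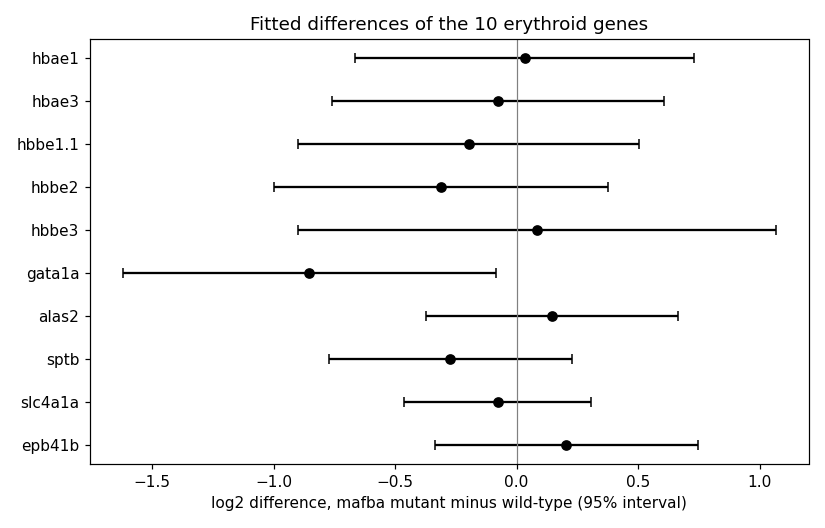
Log2 differences of the 10 erythroid genes, mafba mutant minus wild-type (horizontal axis), with 95% intervals from the edgeR fit over all genes. The interval of gata1a, from -1.62 to -0.09 and unadjusted for the number of genes, is the 1 interval that leaves out 0, while hbbe3 has the widest, from -0.90 to 1.07.

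Precision differed among the 10 genes. The half-width of the 95% interval was between 1.31-fold for slc4a1a and 1.98-fold for hbbe3, with a median of 1.61-fold. The median log2 difference of the 10 genes was -0.08, and that of all 19381 genes was -0.00471. In all, 4 of the 10 were fitted higher and 6 lower in the mutant libraries.

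The globins were then set against the other erythroid genes within each library. The summed globins stood at 208, 483 and 159 times the CPM of gata1a in mutant 1, 2 and 3, against 107, 271 and 133 times in wild-type 1, 2 and 3. The mean log2 ratio was 7.98 ± 0.84 in mutant and 7.29 ± 0.70 in wild-type libraries (SD, n = 3 each), a difference of 0.68 that was smaller than the SD of the mutant libraries. Without mutant 2 the difference was 0.22 and without wild-type 2 it was 1.08. Relative to the mean of the 3 membrane genes on the log2 scale, the globins stood at 22.5, 50.4 and 23.9 times in mutant libraries and 26.6, 45.9 and 29.3 times in wild-type libraries. Here the library numbered 2 was the highest of both genotypes and the groups overlapped. Relative to alas2 they stood at 26.8, 34.6 and 28.4 times in mutant libraries and 30.0, 38.8 and 39.6 times in wild-type libraries. This ratio varied 1.48-fold over the 6 libraries, against 4.53-fold for the ratio to gata1a. The mean log2 ratio to alas2 was 4.90 ± 0.19 in mutant and 5.16 ± 0.22 in wild-type libraries (SD, n = 3 each). That difference of -0.27 was larger than either SD, though the groups overlapped. The ratios were given no test, since they combine genes chosen with earlier results known.

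**Figure D4:**
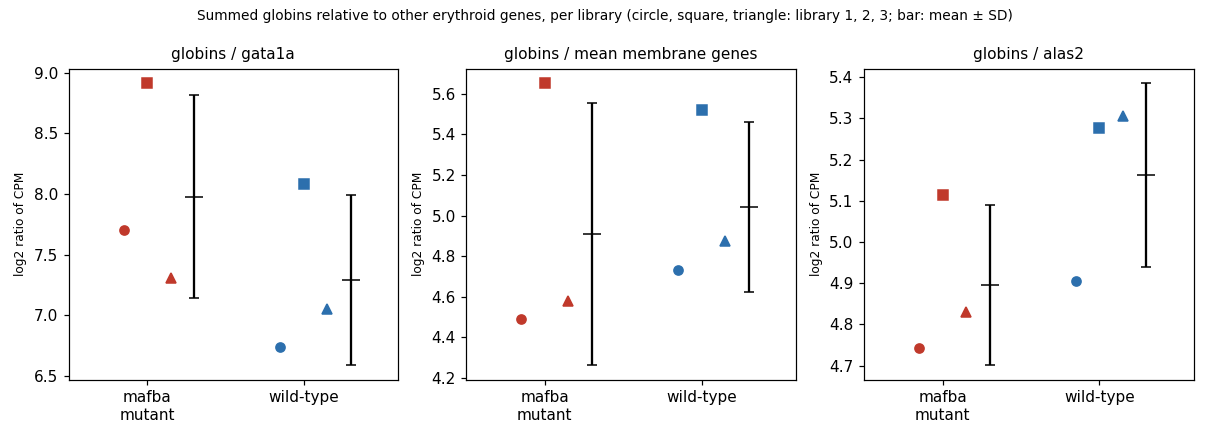
Log2 ratio of the summed CPM of the 5 globins to gata1a, to the mean of sptb, slc4a1a and epb41b, and to alas2 (vertical axes, each with its own range) in the mafba mutant (red, left) and wild-type (blue, right) libraries, with mean ± SD in black. Points of both genotypes overlap in each panel, and the spread is widest for gata1a, from 6.74 to 8.92.

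How far the profiles of 2 genes over the 6 libraries differed was measured as the root-mean-square difference of their log2 CPM after each was centred on its own mean. Pairs of globins differed by 0.10 to 0.36 log2 units (10 pairs, median 0.21), and alas2 differed from the globins by 0.21 to 0.32. The membrane genes differed from each other by 0.19 to 0.38 and from the globins by 0.32 to 0.81. The profile of gata1a was 0.70 to 0.90 from the globins, 0.70 from alas2 and 0.37 to 0.61 from the membrane genes, with sptb nearest. From the membrane genes alas2 differed by 0.26 for epb41b, 0.27 for slc4a1a and 0.53 for sptb, so that it was as near to epb41b and slc4a1a as to the globins, and farther from sptb and gata1a. The measure is a description over 6 libraries, and genes read from the same library share its depth and its makeup of cells.

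Among 11195 genes of at least 5 CPM outside the globins, EVI5L at 0.10 and fes at 0.10 log2 units were among the 3 with profiles most like hbae3. The level of fes was 2.98, 8.12 and 5.25 CPM in mutant libraries and 3.93, 6.27 and 5.26 CPM in wild-type libraries, again with mutant 2 highest and mutant 1 lowest. By the same measure alas2 ranked 42, epb41b 719, slc4a1a 789, sptb 7397 and gata1a 9640. Of 11194 candidates, the genes most like gata1a were yod1 at 0.18, greb1l at 0.20 and HDAC7 at 0.20, with sptb at rank 86. The level of greb1l was 7.46, 8.61 and 13.7 CPM in mutant libraries and 17.4, 15.2 and 21.0 CPM in wild-type libraries.

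Other genes of the red cell were read from 5 lists with 73 entries, of which 63 matched a row and 59 were tested. None passed the edgeR test over all genes and 0 had an unadjusted p under 0.05, where 0% and 1.57% of all genes did. Of the 59, 17 were fitted higher and 42 lower in mutant libraries, with a median log2 difference of -0.13, where 50.7% of all genes were fitted lower. In 2 of them, the haem enzyme gene ppox and the transcriptional cofactor gene trim33, every mutant library lay below every wild-type library, a share of 59 close to the 3.36% of all genes. Several of these genes, such as tal1 and lmo2, are also active in endothelium and blood stem cells, so their reads need not come from red cells.

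The list of erythroid factors had 13 of 14 tested genes fitted lower and 1 higher, with a median log2 difference of -0.29, where 50.7% of all genes were fitted lower. As in the other lists, these genes were read from the same 6 libraries and share their makeup of cells. The 13 are thus not independent readings. Both tal1 and lmo2, partners of Gata1 in a DNA-binding complex, had the smallest p of the list. The gene tal1 had 39.9, 36.8 and 59.7 CPM in mutant libraries and 59.9, 54.5 and 70.3 CPM in wild-type libraries, a log2 difference of -0.44 ± 0.21 (SE). For lmo2 the levels were 30.4, 28.5 and 39.6 CPM in mutant libraries and 48.7, 33.6 and 50.8 CPM in wild-type libraries, a log2 difference of -0.43 ± 0.21. As for gata1a, mutant 1 and 2 lay below each wild-type library in both genes, and mutant 3 did not. The cofactor gene ldb1a differed by -0.01 ± 0.16, trim33, whose loss in zebrafish causes anaemia, by -0.25 ± 0.17, and znfl2a by -0.22 ± 0.21. Thrombocytes also use Gata1, and the sum of their markers was lowest in mutant 2, at 365 CPM, and highest in wild-type 3, at 944 CPM. Most of the sum was thbs1b, at 303 CPM in mutant 2 and 859 CPM in wild-type 3. The marker itga2b had 5.08 CPM in mutant 2 and was lowest in wild-type 2, at 0.801 CPM. Wild-type 3 was also highest for gata1a. Mutant 1, the lowest for gata1a, had a thrombocyte sum of 655 CPM, above the 609 CPM of wild-type 2. The part of thrombocytes in the gata1a values was not tested.

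Of the 18 haem and iron genes tested, 14 lay lower in the fit and 4 higher, with a median log2 difference of -0.14. The enzyme gene urod had 61.1, 64.8 and 73.3 CPM in mutant libraries and 72.7, 70.6 and 73.5 CPM in wild-type libraries, a log2 difference of -0.12 ± 0.15 (SE). The glutaredoxin gene glrx5, needed for iron-sulphur clusters, also differed by -0.12 ± 0.15. The smallest p of the list were those of hmbsb, which encodes a haem pathway enzyme, at -0.40 ± 0.28, and slc25a38a, a mitochondrial glycine carrier gene, at -1.83 ± 1.33. This carrier gene was near the detection limit, with 0.893, 0 and 0.714 CPM in mutant libraries and 2.69, 2.43 and 0.655 CPM in wild-type libraries.

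Of the 11 other membrane and skeleton genes tested, 7 lay lower in the fit and 4 higher, with a median of -0.13. The gene rhag, for a gas channel of the red cell membrane, had 145, 124 and 273 CPM in mutant libraries and 251, 157 and 260 CPM in wild-type libraries, a log2 difference of -0.30 ± 0.28 (SE). Its lowest libraries, mutant 2 and mutant 1, were also the lowest for sptb. The membrane scaffold gene mpp1 differed by -0.25 ± 0.23, and the water channel gene aqp1a.1, which endothelium also expresses, by -0.02 ± 0.32. Of the 12 genes for red cell enzymes and signalling, 7 lay lower and 5 higher, with a median of -0.01. The peroxiredoxin gene prdx2 differed by -0.10 ± 0.16, the hexokinase gene hk1 by -0.19 ± 0.16, the kinase gene jak2a, which acts below the erythropoietin receptor, by -0.02 ± 0.15, and the nucleotidase gene nt5c3a by 0.24 ± 0.18. Of the 4 tested rows of other globins, 1 lay lower and 3 higher, with a median of 0.01. The largest of them in reads, si:ch211-5k11.12, had 343, 1031 and 589 CPM in mutant libraries and 474, 760 and 728 CPM in wild-type libraries, the pattern of the other globins, and hbbe1.2 differed by -0.08 ± 0.33.

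**Figure D5:**
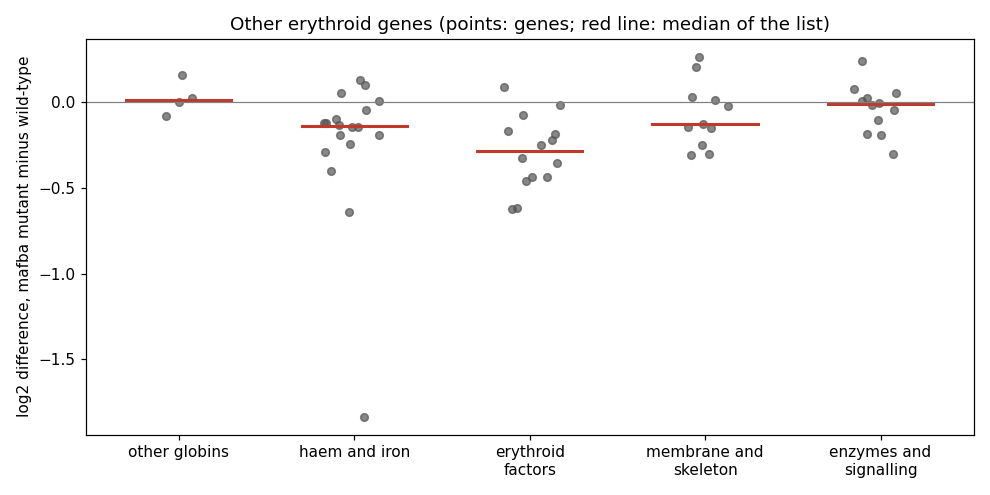
Log2 differences, mafba mutant minus wild-type (vertical axis), of the 59 tested genes of the 5 lists (horizontal axis), with a point for each gene and a red line at the median of each list. The medians run from -0.29 for erythroid factors to 0.01 for other globins, and the lowest point is slc25a38a at -1.83.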

How the data were processed

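The authors deposited raw counts, as whole numbers of reads for each gene symbol, in a file per library and again in a table of the series, where all 29361 rows held equal counts. The submitters' processing notes name bcl2fastq, STAR, HTSeq, danRer7 and Zv9; no version, annotation or strand setting is named there, so overlapping genes cannot be told apart. The 5 summary rows, 22.1% to 28.1% of entries, were left out. In R 4.3.3 the counts were filtered with filterByExpr, scaled with TMM and tested with the edgeR 4.0.16 quasi-likelihood test (robust, no block; Benjamini-Hochberg threshold 0.05). Standard errors are those of the fit. Alternatives included DESeq2 1.42.0 and limma-voom (limma 3.58.1). The scripts were tested on simulated data. Symbols of the lists were matched directly (53 of 73 erythroid entries) or through RefSeq synonyms of GRCz12tu (10). The members and lists were chosen with earlier results of these data known. Named from each list were the 3 genes with the highest CPM and the 2 with the smallest p, and 3 genes by likeness to hbae3 and to gata1a; 1 gene that this rule names is not reported here. The genes ppox and hbaa1 were named after their values were seen. Intervals of shares cover counting error only.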

Additional observations from a re-analysis of the deposited data

How the results depend on the processing

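At a threshold of 0.05 the number of changed genes was 0 under each of the alternatives run (other scalings, filters, tools, each library left out). A threshold of 0.1 was applied to the main fit only, where it also gave 0 genes. The lowest adjusted p in any was 0.0535, in edgeR with the replicate block. In DESeq2 the lowest was 0.0829, so both lay under 0.1. Of 170 alternative values of the 10 genes, 156 kept the sign of the reported value, 14 in 6 genes did not, and 0 passed the threshold (lowest adjusted p 0.999). Without robust estimation and with counts of the series table, the log2 differences equalled the reported ones. The 170 values thus include some whose sign could not change. With scaling that left out the globins, no sign changed. In limma-voom hbae1 was -0.20 and hbbe3 -0.11; in the fit with a replicate block for the numbers of the labels they were -0.0874 and -0.10, and gata1a was -0.88. The labels tie equal numbers to nothing shared, and deviations of same-numbered libraries correlated at 0.0598, 0.0211 and 0.140. With each library left out in turn, hbae1 ranged from -0.40 to 0.35, hbae3 from -0.52 to 0.22, hbbe1.1 from -0.71 to 0.10, hbbe2 from -0.72 to -0.03, hbbe3 from -0.64 to 0.40, gata1a from -1.26 to -0.63, alas2 from -0.17 to 0.39, sptb from -0.54 to -0.07, slc4a1a from -0.18 to 0.0823 and epb41b from 0.07 to 0.43. The difference in the log2 ratio of globins ranged from 0.22 to 1.08 against gata1a, from -0.51 to 0.11 against the membrane genes and from -0.40 to -0.19 against alas2. The cause was not tested.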
